A study of Rattus norvegicus with 6 samples.

Results

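The miR-30 family was followed in rat tendon-derived stem cells (rTDSCs) with and without mechanical loading. Its members were taken by name from the miRNA column of the array files, namely rno-miR-30a, rno-miR-30b-5p, rno-miR-30c, rno-miR-30d and rno-miR-30e, without the opposite (star) arms of their hairpins. These were 5 of the 677 miRNAs of the array, and all 5 were detected in all 6 samples. The prefix rno, for rat, is left out from here on.

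A miRNA guides a silencing complex to messenger RNAs, mainly by pairing of its seed, bases 2 to 8 from the 5′ end, with sites in the target. miRNAs with a common seed can therefore bind largely the same sites. The miR-30 family is known for restraining osteoblast differentiation through Runx2, the master transcription factor of bone formation, and through Smad1, which carries bone morphogenetic protein signals. It is also known to repress Ctgf, a matricellular growth factor of fibrosis and connective tissue repair.

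For 3 of the 5 members a mature sequence was matched in the RefSeq table of build GRCr8, and these are shown because the seed is what the members share and the 3′ part is where they differ. The seed is in capitals, 5′ to 3′.
miR-30a: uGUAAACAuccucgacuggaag
miR-30e: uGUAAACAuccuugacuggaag
miR-30c: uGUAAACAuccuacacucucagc
miR-30a and miR-30e were identical over 21 of 22 bases and differed by C13U, counted from 1 at the 5′ end with the base of miR-30a first. miR-30c shared the first 12 bases with both and differed from miR-30a at 5 of 22 compared bases (C13A, G14C, G18C, G19U and A20C). Probe sequences were not used here, and how far a probe of one member also binds a near-identical member was not measured.

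In GRCr8, mature miR-30a lies at chr9:33233946-33233967 on the plus strand and mature miR-30e at chr5:139637504-139637525 on the minus strand. Mature miR-30c is made from a pair of hairpins, with copies at chr5:139634505-139634527 on the minus strand (Mir30c1) and chr9:33253695-33253717 on the plus strand (Mir30c2). The 6 hairpin genes of the family form pairs on 3 chromosomes, Mir30a with Mir30c2 (19.7 kb apart), Mir30b with Mir30d (3.71 kb) and Mir30c1 with Mir30e (2.91 kb), with 0 annotated genes lying wholly between the partners. Mir30c1 and Mir30e lie within the span of Nfyc, which encodes a subunit of the transcription factor NF-Y, and Mir30b and Mir30d within that of an annotated long non-coding RNA. Mir30c2 lies within the spans of another long non-coding RNA and of the pseudogene Rbx1-ps1, which do not span Mir30a. The signal of the array's miR-30c can therefore come from either copy.

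rTDSCs were isolated from the patellar tendons of 8-week-old male Sprague Dawley rats and used at passage 3. The loading group (3 samples) was stretched in one direction by 10% at 0.5 Hz for 8 h per day over 7 days, and the non-loading group (3 samples) was kept untreated for 7 days, both on the same kind of collagen-coated elastic plate. The labels number the replicates but do not say whether they are separate isolations, and primary cells were mixed at passage 0, so p-values measure only the spread between these samples.

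The 6 samples were labelled with 1 dye and read on the 6 Agilent miRNA arrays of 1 slide, which had a single scan. The number of arrays limits the precision. Intensities were scaled to each array's 75th percentile over 173 probes detected on every array, which lay between 262.6 and 362.2 intensity units. Against this, the negative-control spots had a standard deviation of 1.80 to 2.28 units, and 0 spots were saturated. The scanner software detected between 140 and 186 miRNAs per array. Of the miRNAs taken as cell type markers, 5 of 6 mesenchymal ones (the list was miR-199a-3p, miR-199a-5p, miR-214, miR-143, miR-145 and miR-21) were detected on every array, with a log2 summed signal of 6.75 to 6.88 in the non-loading and 6.86 to 6.91 in the loading group. None of 4 muscle, 6 epithelial, 1 liver and 2 neural markers was detected on any array. Of 6 blood markers miR-223 alone was detected on some array, and the endothelial marker miR-126 was detected on all 6. The log2 summed signal of the blood list was -2.85 to -2.52 without and -2.59 to -2.47 with loading, and that of miR-126 was -5.17 to -4.35 and -4.68 to -4.22. Values below a floor of -5.74 were set to it before summing. The 6 undetected epithelial markers thus summed to -3.16 in both groups, and the blood sum of 6 miRNAs is to be read against that value. The log2 changes (loading minus non-loading) were 0.40 for miR-223 and 0.25 for miR-126, with standard errors of 0.22 and 0.25. Their part in the results was not tested. In such bulk RNA, fewer cells of a type and less of a miRNA per cell cannot be told apart.

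To ask whether the family responds to stretch, the groups were compared for each member. No member passed the test. Adjusted over the 148 miRNAs tested with limma, 0 of 5 members had a p under 0.05, where 0% of all tested miRNAs did. At an unadjusted limma p under 0.05 the count was 0 of 5, against 9.46% of all tested miRNAs, and the methods' own test (Newman–Keuls) gave 0 of 5 too, both after adjustment, where it called 1.35% of all tested miRNAs, and before it, where it called 10.1%. The loading and non-loading arrays overlapped for every member, while 15.5% of the tested miRNAs had groups that did not overlap. The log2 changes of the members (loading minus non-loading) ran from -0.02 to 0.14 with a median of 0.07, beside a median of 0.06 over all 148 miRNAs. The sign of such small values depended on the setting. Here 4 of the 5 were above 0, among them miR-30c by only 3.7e-07. The count was 0 with the 75th percentile over all probes, most of which are near background, and also 0 with normexp background correction, and it was 1 with the slide column as a block.

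The following levels are log2 of the summed probe signal over the array's 75th percentile. Since probes bind with different strength, the level of one member cannot be ranked against that of another, and each is compared only with itself.

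miR-30a, which is encoded beside Mir30c2, had overlapping groups, and its mean was higher under loading here but lower with the 75th percentile over all probes and with normexp. Its log2 level was -2.21, -2.12 and -2.25 in non-loading replicates 1, 2 and 3, and -1.94, -2.17 and -2.06 in loading replicates 1, 2 and 3. The highest of the 6 was loading replicate 1 and the lowest non-loading replicate 3, with loading replicate 2 below non-loading replicate 2. The means were -2.19 ± 0.07 (SD, n = 3) and -2.06 ± 0.11 (SD, n = 3), a log2 change of 0.14 with a standard error of 0.09 (adjusted p = 0.724, limma). The 95% interval runs from 0.943 to 1.28 times the non-loading signal (p = 0.2, two-sided exact permutation test, which gives 0.1 at the lowest for groups of 3). A larger change in either direction was measured for 58 of the 148 miRNAs.

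miR-30d, whose gene is the neighbour of Mir30b, had loading arrays that lay close together. It lay at -2.24, -2.26 and -2.51 in non-loading replicates 1 to 3 and at -2.24, -2.30 and -2.26 in loading replicates 1 to 3. Apart from the lower non-loading replicate 3, the arrays lay within a narrow band. Its log2 change was 0.07 with a standard error of 0.10 (adjusted p = 0.743, limma), with a 95% interval of 0.892 to 1.24 times. The group means were -2.34 ± 0.15 (SD, n = 3) and -2.27 ± 0.03 (SD, n = 3).

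miR-30e, which differs from miR-30a by a single base, lay at -2.47, -2.35 and -2.72 without loading and at -2.36, -2.71 and -2.54 with it, in replicates 1 to 3. High and low arrays occurred in both groups. The log2 change was -0.02 with a standard error of 0.14 (adjusted p = 0.957, limma), and the interval was 0.780 to 1.24 times. With the slide row as a block the change was 0.15. With the slide column as a block it was -0.21 with a standard error of 0.07 (adjusted p = 0.430, limma).

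miR-30c, the member made from a pair of loci, had equal group means. Its log2 level was -3.49, -3.20 and -3.24 in non-loading replicates 1 to 3 and -3.09, -3.80 and -3.04 in loading replicates 1 to 3. Loading replicate 2 was the lowest of all arrays, and the other two loading arrays were the highest. Both means were -3.31, with an SD of 0.16 without and 0.43 with loading (n = 3 each), and the log2 change was 3.7e-07 with a standard error of 0.22 (adjusted p = 1.00, limma). The interval reached from 0.685 to 1.46 times. It rests on loading replicate 2, without which the change was 0.25 with a standard error of 0.12.

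miR-30b-5p, encoded beside Mir30d, had widely spread arrays. It lay at -4.14, -3.67 and -3.79 in non-loading replicates 1 to 3 and at -3.36, -4.41 and -3.56 in loading replicates 1 to 3. As for miR-30c, the highest and the lowest array were both loading arrays. The means were -3.87 ± 0.25 (SD, n = 3) and -3.77 ± 0.56 (SD, n = 3), a log2 change of 0.09 with a standard error of 0.29 (adjusted p = 0.936, limma), and the interval was 0.649 to 1.75 times.

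**Figure D1:**
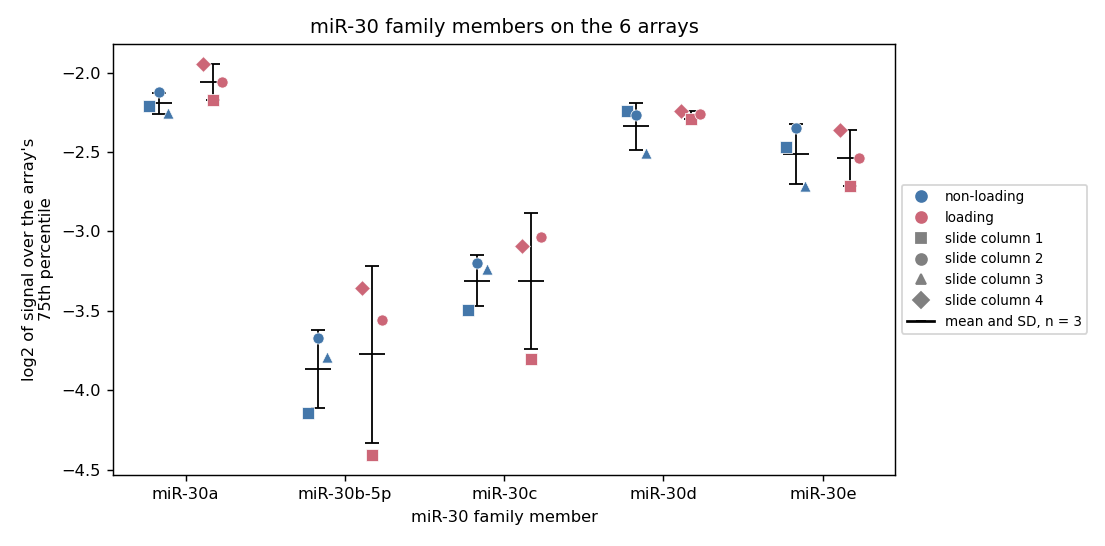
The y axis gives the log2 of the signal over the array's 75th percentile for the 5 members (x axis), one point per array, blue for non-loading and red for loading, with shapes for the slide column and bars for the group mean and SD (n = 3). The groups overlap for each member, and the squares of column 1 are the lowest points of both groups for miR-30b-5p and miR-30c. Heights of different members are not comparable.

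Single arrays weighed on these values. Without loading replicate 2, the log2 change of miR-30b-5p was 0.41 and that of miR-30c 0.25, and 3 of the 5 members (miR-30a, miR-30b-5p and miR-30c) had groups that did not overlap, as did 32.4% of all tested miRNAs. The adjusted limma p of the members was then 0.505 or more. Without non-loading replicate 2, miR-30a alone had groups that did not overlap, with 29.7% of all tested miRNAs. With any other array left out the count was 0 of 5, beside shares of all tested miRNAs that were 25% when non-loading replicate 1 was dropped, 24.3% for non-loading replicate 3, 23% for loading replicate 1 and 22.3% for loading replicate 3. Without loading replicate 1 the change of miR-30b-5p was -0.12 and that of miR-30c -0.11. It was -0.015 and -0.14 without loading replicate 3, and -0.045 and -0.091 without non-loading replicate 1. The change of miR-30d was -0.013 without non-loading replicate 3, and that of miR-30e 0.057 without non-loading replicate 2 and 0.063 without loading replicate 2.

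**Figure D2:**
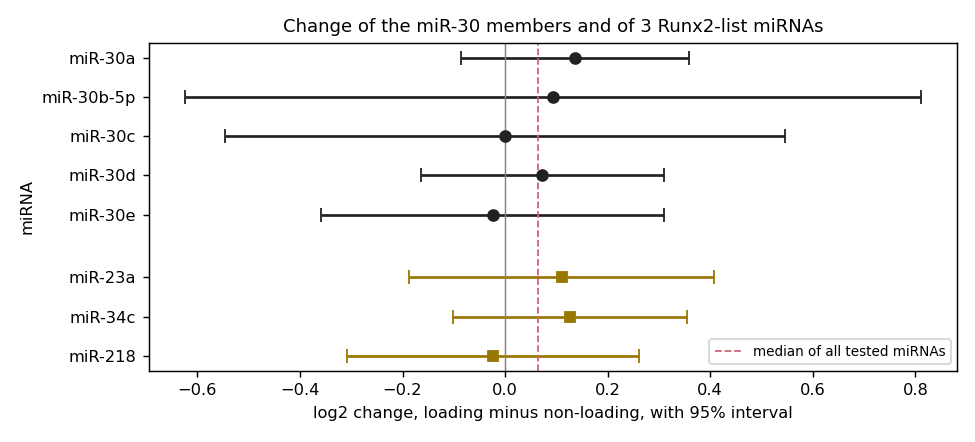
The x axis gives the log2 change (loading minus non-loading) with its 95% interval from limma for the 5 miR-30 members (circles) and for the 3 tested miRNAs of the Runx2 list (squares), n = 3 arrays per group. All intervals include 0 (grey line), and the dashed line is the median of the 148 tested miRNAs, 0.06.

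The probes behind these levels differed in quality. Every member had a brighter and a dimmer probe, each with 10 spots per array. Of the 300 spots of the brighter probes on the 6 arrays, 287 were well above background, as were 93 of 300 spots of the dimmer ones. The dimmer probe of miR-30d carried 59 of those 93, that of miR-30a 28 and that of miR-30e 6, whereas those of miR-30b-5p and miR-30c had 0 of 60 each. The levels of miR-30b-5p and miR-30c thus came mainly from 1 probe each. Repeated spots of a brighter probe had a median coefficient of variation between 7.92% (miR-30a) and 20.1% (miR-30b-5p).

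On the brighter probe alone, in percent of the 75th percentile, miR-30a had a mean of 18.7% ± 0.674 (SD, n = 3) without loading and 20.4% ± 1.63 (SD, n = 3) with it. miR-30b-5p gave 6.47% ± 1.06 (SD, n = 3) and 7.04% ± 2.04 (SD, n = 3). For miR-30c the log2 change on this probe was 0.0013. The groups overlapped for all 5 brighter probes. The dimmer probe of miR-30a gave a log2 change of 0.22 and the brighter one 0.12, and for miR-30e the changes were -0.093 and -0.015. For miR-30d they were 0.044 and 0.091, and for miR-30c 0.024 and 0.0013, with 0 of 60 spots of its dimmer probe well above background. Both probes of each of these members thus pointed the same way within overlapping groups, on the same arrays.

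**Figure D3:**
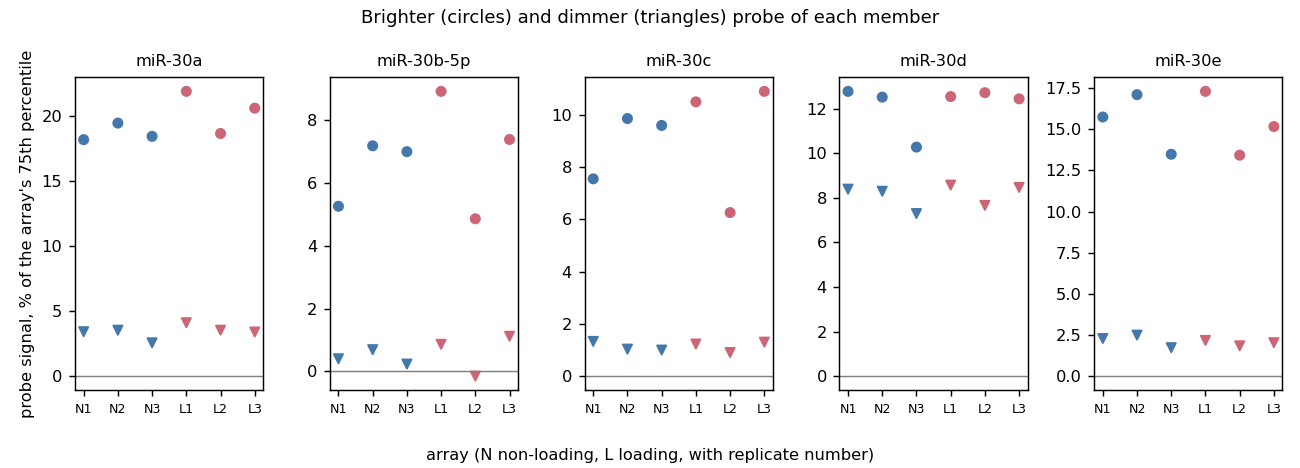
Each panel shows one member, with the signal of its brighter probe (circles) and dimmer probe (triangles) as a percentage of the array's 75th percentile (y axis, scaled per panel) on the non-loading arrays (N1 to N3, blue) and loading arrays (L1 to L3, red). For miR-30b-5p and miR-30c the circles of N1 and L2 are the lowest, and the triangles lie near 0.

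The members differed in how much they varied between arrays of one group. The pooled SD within groups was 0.09 for miR-30a, 0.11 for miR-30d and 0.18 for miR-30e, but 0.32 for miR-30c and 0.43 for miR-30b-5p, beside a median of 0.16 over the 148 miRNAs tested. Only 14 miRNAs had a larger SD than miR-30b-5p and 22 a larger one than miR-30c, while 116 had a larger one than miR-30a. Without loading replicate 2 the pooled SD was 0.22 for miR-30b-5p and 0.13 for miR-30c, the latter below the 0.17 of miR-30e. With normexp after replacement of outlying background values it was 0.07 for both, below the 0.11 of miR-30d and the 0.10 of miR-30e. The median over all tested miRNAs was then 0.11. Normexp was run with an added offset of 50 units, beside intensities of 12.7 to 69.9 units for the members' brighter probes. The part of this offset in these values was not tested.

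The low values of miR-30b-5p and miR-30c came from the arrays in column 1 of the slide, which are non-loading replicate 1 and loading replicate 2. This split was looked at after the values were seen, and it crosses the study's groups. For miR-30b-5p the mean log2 level was -4.28 on these 2 arrays and -3.59 on the other 4, a difference of -0.68. That was the lowest of the 148 miRNAs tested, where the median was 0.04. For miR-30c the means were -3.65 and -3.14, a difference of -0.51, which was the third lowest. Both arrays of column 1 lay below all others for these 2 members. The differences of miR-30a (-0.098), miR-30e (-0.099) and miR-30d (0.051) were smaller, and their arrays overlapped. The same 2 arrays had the lowest 75th percentiles, 275.1 and 262.6 units, and there the brighter probe of miR-30b-5p had 8 and 3 of 10 spots well above background, against 9 or 10 on the other arrays. On those probes alone the differences were -0.59 for miR-30b-5p and -0.57 for miR-30c. With normexp background correction they turned to 1.19 and 1.13, with 108 and 94 of the 148 miRNAs as low or lower. They were 0.10 and 0.098 when outlying background values were replaced first, with 44 and 43 miRNAs as low or lower. Without loading replicate 2 they were -0.55 and -0.35, with 2 and 6 miRNAs as low or lower. The part of slide position or of array brightness in these values was not tested.

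**Figure D4:**
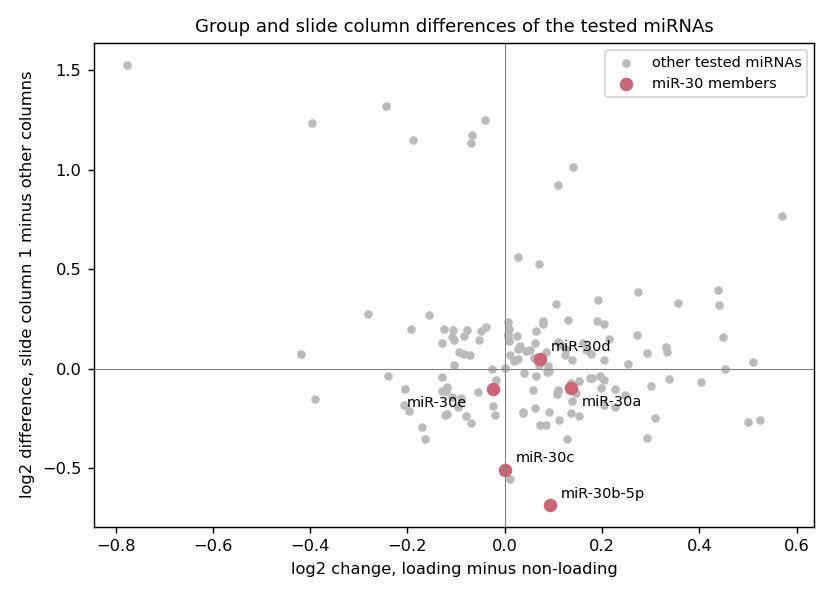
Each point is one of the 148 tested miRNAs, with its log2 change between groups on the x axis and the log2 difference between the 2 arrays in slide column 1 and the other 4 arrays on the y axis. The miR-30 members (red) lie near 0 on the x axis, and miR-30b-5p (-0.68) and miR-30c (-0.51) are at the lower edge of the y axis.

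Within slide columns 1 and 2, which hold 1 array of each group, the loading array minus the non-loading array gave -0.27 and 0.11 for miR-30b-5p and -0.31 and 0.16 for miR-30c. For miR-30e it gave -0.24 and -0.19, for miR-30d -0.055 and 0.0066, and for miR-30a 0.039 and 0.062. These are differences between single arrays. Their sign was the same in both columns only for miR-30a and miR-30e, which had pooled SDs within groups of 0.09 and 0.18. Both values of miR-30a were smaller than its SD. Within row 1 of the slide, which holds all non-loading arrays and loading replicate 1, that loading array was above the non-loading mean for all 5 members, by 0.25 for miR-30a, 0.51 for miR-30b-5p, 0.22 for miR-30c, 0.094 for miR-30d and 0.15 for miR-30e. Row 2 holds loading arrays only. With the row as a block the changes were these same values. With the column as a block they were 0.051 for miR-30a, -0.077 for miR-30b-5p, -0.073 for miR-30c, -0.024 for miR-30d and -0.21 for miR-30e.

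miR-30a, miR-30d and miR-30e form a subgroup with like 3′ ends, and miR-30b and miR-30c another. The mean log2 level of the first minus that of the second was computed on each array, which cancels any single scale factor. It was 1.51, 1.19 and 1.02 in non-loading replicates 1 to 3 and 1.04, 1.71 and 1.01 in loading replicates 1 to 3, highest on the 2 arrays of slide column 1. The means were 1.24 ± 0.25 (SD, n = 3) and 1.26 ± 0.40 (SD, n = 3). The difference in change between the subgroups was 0.015 (p = 0.9, two-sided exact permutation test), and it was -0.21 without loading replicate 2.

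The opposite arms of the hairpins, which are usually degraded after the guide strand is loaded, were at or near background. Of the 6 on the array, 4 (miR-30b-3p, miR-30c-1*, miR-30c-2* and miR-30d*) were not detected on any array, with 0 of 120 spots well above background each. miR-30e* was detected on 3 arrays, non-loading replicate 2 and loading replicates 1 and 3, with 1 of its spots well above background in the non-loading and 6 in the loading group. Its log2 level was between the floor of -5.74 and -5.33. miR-30a* was detected on loading replicate 1 only, with 1 of 120 spots well above background. None of the 6 met the condition for testing, detection on all arrays of at least 1 group.

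Among the mature rat sequences of the RefSeq table, miR-384-5p alone shares the seed GUAAACA with the miR-30 members beyond those matched. It was not detected on any array, with 1 of 120 spots well above background.

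Other miRNAs reported to act on the family's best-known targets were read from short lists. The Runx2 list held miR-23a, miR-34c, miR-133a, miR-135a, miR-137, miR-204, miR-205, miR-217, miR-218 and miR-338, and 3 of these 10 could be tested, with 0 passing an adjusted or an unadjusted limma p of 0.05 in either direction. miR-23a, a partner of miR-27 and miR-24 in their cluster, lay at 2.63, 2.88 and 2.95 on the non-loading arrays and 3.06, 2.77 and 2.96 on the loading arrays. Its change was 0.11 with a standard error of 0.12 (adjusted p = 0.724, limma). miR-34c, a p53-responsive miRNA, had a log2 change of 0.13 with a standard error of 0.09 (adjusted p = 0.724, limma) and miR-218, made from introns of the Slit genes, by -0.02 with a standard error of 0.12 (adjusted p = 0.957, limma). All 3 had overlapping groups, and under the 75th percentile over all probes miR-23a was at -0.044 and miR-34c at -0.029. miR-204 was detected on 2 non-loading arrays and 1 loading array, and the other 6 on none.

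The Ctgf list held miR-18a, miR-133a and miR-133b, of which 0 of 3 could be tested. miR-18a, of the cluster named after miR-17, was detected on 2 arrays of each group, and both miR-133 forms, which are muscle miRNAs, on none.

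The mean profile of the 5 members, centred on its own mean, was -0.10, 0.10 and -0.08 in non-loading replicates 1 to 3 and 0.22, -0.26 and 0.13 in loading replicates 1 to 3. The miRNAs with the most similar centred log2 profiles over the 6 arrays were miR-185, miR-148b-3p and miR-365, with root mean square differences of 0.064, 0.070 and 0.071. Their own log2 changes were 0.15, 0.06 and 0.04. The 5 members lay at 0.10 (miR-30a) to 0.21 (miR-30b-5p) from the family mean. No comparison is drawn with the miRNAs above, since those were chosen as the nearest among all tested miRNAs that are no member. The arrays are shared by all these profiles.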

How the data were processed

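The authors deposited the scanner output of 6 one-colour arrays, made with Agilent Feature Extraction (version 10.7.3.1 in the file headers), in which the intensity of each spot is background-subtracted but not scaled between arrays. The deposited matrix holds the same intensities. The scanner's flags of 0 or 1 were used as deposited. The normalization that the study applied is not given in the sources used here.

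After removal of control spots and outlier flags, the mean signal of each probe was scaled to the 75th percentile of 173 probes that had at least 50% of spots well above background on all arrays. Probes were summed per miRNA, set to a floor of 1.87% of the percentile, and put on the log2 scale. The 148 miRNAs detected on all arrays of a group were tested with limma 3.58.1 (R 4.3.3) and Benjamini-Hochberg adjustment, which was also tested on simulated data. Single values were compared by exact permutation. Coordinates and sequences come from RefSeq tables of GRCr8, while the arrays were annotated on rn4.

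Named miRNAs are the 5 members, their other arms, miRNAs with their seed, the tested miRNAs of the Runx2 and Ctgf lists, and the 3 nearest profiles. The members and lists were chosen with earlier results of these data known. Alternatives concerned background, scaling, probe summary, filter, floor, outlier spots, test, blocks, left-out arrays and the deposited matrix. The normexp alternatives added an offset of 50 units to the background-corrected intensities before scaling.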

Additional observations from a re-analysis of the deposited data

How the results depend on the processing

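None of the 5 members passed an adjusted or unadjusted p of 0.05 in limma, or in the methods' test, under any of the 20 alternatives or with any array left out, nor did a tested miRNA of the Runx2 list pass an adjusted p of 0.05. Not all alternatives are separate checks. The deposited matrix, used as an alternative, holds the same intensities, and the filter and floor alternatives left the members' log2 changes as they were. Of all tested miRNAs, 2 had an adjusted p under 0.05 in 9 of the 20 alternatives and 0 in the rest and with an array left out, and between 0 and 12.2% had an unadjusted one. What changed was the sign of small values, and in some settings also their size and spread. With normexp background correction the members' standard errors were 0.71 to 0.82. The median pooled SD of all tested miRNAs was then 1.01, beside 0.16 before. With the 75th percentile over all probes each member had a standard error of 0.34. In these settings 0 and 1 of the 148 tested miRNAs had an unadjusted limma p under 0.05, so a call was hardly possible there. The members' brighter probes had intensities of 12.7 to 69.9 units. With normexp background correction, where the median change of all miRNAs was -0.45, miR-30a was at -0.39, miR-30b-5p at -0.53, miR-30c at -0.51, miR-30d at -0.43 and miR-34c at -0.25, with 0 members above 0 and a family median of -0.48, and the slide column differences were 1.19 (miR-30b-5p) and 1.13 (miR-30c). With outlying background values replaced first, miR-30e was at 0.014, miR-218 at 0.016 and the column differences at 0.10 and 0.098. With the 75th percentile over all probes, where the median of all miRNAs moved from 0.06 to -0.09, miR-30a was at -0.018, miR-30b-5p at -0.061, miR-30c at -0.15, miR-30d at -0.082, miR-23a at -0.044 and miR-34c at -0.029, with 0 members above 0. miR-30c was at -0.015 with quantile normalization, -0.052 without scaling, -0.013 with the total gene signal and -0.018 with outlier spots kept, where the subgroup difference was -0.0046. With the slide row as a block, miR-30e was at 0.15, miR-218 at 0.074, miR-34c at -0.0034 and the subgroup difference at -0.20. With the slide column as a block, miR-30b-5p was at -0.077, miR-30c at -0.073 and miR-30d at -0.024, with 1 member above 0. The cause was not tested.

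With an array left out in turn, the changes ran from 0.079 to 0.19 for miR-30a, -0.12 to 0.41 for miR-30b-5p, -0.14 to 0.25 for miR-30c, -0.013 to 0.12 for miR-30d, -0.13 to 0.063 for miR-30e and -0.072 to 0.069 for miR-218. The number of members above 0 ran from 2 to 5, the family median from -0.11 to 0.19 and the subgroup difference from -0.21 to 0.15. The number of members with no overlap ran from 0 to 3, beside 22.3% to 32.4% of all tested miRNAs. The count of 3 fell where that share was 32.4%. The labels do not say whether equal replicate numbers pair the samples. Arrays with one number deviated from their group means with correlations of -0.69, -0.47 and 0.11. These values cannot settle it, because arrays with one number also differed in slide position. Using the replicate block, miR-30a had a change of 0.14 (limma adjusted p = 0.850), and 0 members passed an adjusted p of 0.05. The slide column comparison was chosen after seeing the data.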
